A study of Homo sapiens with 41 samples.

Results

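The dual-specificity phosphatases examined here are 10 genes, DUSP1, DUSP2, DUSP4, DUSP5, DUSP6, DUSP7, DUSP8, DUSP10, DUSP14 and DUSP16, taken by symbol from every table of the series. All 10 were listed in each of the 6 tables, which between them hold 23588 gene symbols. Their RNA was followed in 41 libraries of 15 groups, in tumour cells whose driver kinase was inhibited and in drug-resistant cells inside tumours. A375, a human melanoma line, was cultured with vehicle or with vemurafenib, an inhibitor of mutant BRAF, at 0.1 µM for 6 h or 48 h (n = 3 each). The melanoma lines Colo800 and UACC62 received vehicle or 1 µM vemurafenib for 48 h, and the lung adenocarcinoma line H3122 received vehicle or 0.3 µM crizotinib, an ALK inhibitor, for 48 h (n = 2 each). Cultured cells gave whole RNA and were treated in medium with reduced serum, vehicle groups included. A375 cells were also grown under the skin of mice, where tumours were exposed either to vehicle or to vemurafenib, 75 mg/kg per dose over 10 doses (4 tumours in each group). From these tumours RNA was taken off ribosomes pulled down by a GFP tag, so that the values stand for ribosome-bound RNA of tagged cells. Tumours of A375R, a vemurafenib-resistant derivative of A375, gave ribosome-bound RNA as well. They held A375R alone or, as the titles were read with the growth protocol, A375R mixed with A375, each under vehicle or the same course of vemurafenib (n = 3 each). That the tag in mixed tumours sits in A375R cells is an assumption. The strain and age of the mice are not given in the sources used here, and neither is whether replicate libraries are separate cultures or animals. The p-values therefore rest on the spread among libraries, part of which may be technical.

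Dual-specificity phosphatases of this family switch off MAP kinases by removing phosphate from both the threonine and the tyrosine of the activation loop. Several of them are themselves transcribed when ERK is active and so form a negative feedback loop on the pathway that mutant BRAF keeps on in melanoma. DUSP1, DUSP2, DUSP4 and DUSP5 are nuclear and inducible, DUSP6 and DUSP7 are cytoplasmic and prefer ERK, and DUSP8, DUSP10 and DUSP16 act mainly on the stress kinases JNK and p38. DUSP14 is a small member that lacks the kinase-binding domain of the others.

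The promoters of DUSP6, DUSP2, DUSP1 and DUSP8 are shown because the first pair fell with BRAF inhibition in every sensitive melanoma setting, while DUSP1 and DUSP8 went both ways. Each is the RefSeq window of GRCh38.p14 from 250 bases before to 50 bases after the start of transcription, 5′ to 3′ on the gene's strand, in 300 bases. Windows were matched by symbol for 8 of the 10 members (9 windows, as DUSP10 has 2). None was matched for DUSP4 or DUSP5. Capitals mark the cAMP response element TGACGTCA, the E-box CACGTG and the TATA box TATAAA.
DUSP6, chr12:89352452-89352751, minus strand: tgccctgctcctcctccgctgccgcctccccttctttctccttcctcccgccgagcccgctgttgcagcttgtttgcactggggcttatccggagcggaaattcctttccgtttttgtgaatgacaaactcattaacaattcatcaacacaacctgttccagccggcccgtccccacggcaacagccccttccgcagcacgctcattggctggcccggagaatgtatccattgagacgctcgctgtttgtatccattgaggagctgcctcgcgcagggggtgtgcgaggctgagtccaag
DUSP2, chr2:96145391-96145690, minus strand: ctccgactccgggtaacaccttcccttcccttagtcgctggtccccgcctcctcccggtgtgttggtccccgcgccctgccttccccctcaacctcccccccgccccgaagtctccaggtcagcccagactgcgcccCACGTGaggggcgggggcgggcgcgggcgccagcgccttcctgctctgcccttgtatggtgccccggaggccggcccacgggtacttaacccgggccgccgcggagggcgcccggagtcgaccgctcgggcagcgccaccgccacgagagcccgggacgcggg
DUSP1, chr5:172771146-172771445, minus strand: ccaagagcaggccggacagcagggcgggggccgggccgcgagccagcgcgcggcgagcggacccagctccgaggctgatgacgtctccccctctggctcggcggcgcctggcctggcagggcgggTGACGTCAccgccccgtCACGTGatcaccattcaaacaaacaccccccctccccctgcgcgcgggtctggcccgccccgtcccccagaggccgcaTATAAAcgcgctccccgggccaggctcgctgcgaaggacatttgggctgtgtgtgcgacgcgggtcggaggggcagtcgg
DUSP8, chr11:1572222-1572521, minus strand: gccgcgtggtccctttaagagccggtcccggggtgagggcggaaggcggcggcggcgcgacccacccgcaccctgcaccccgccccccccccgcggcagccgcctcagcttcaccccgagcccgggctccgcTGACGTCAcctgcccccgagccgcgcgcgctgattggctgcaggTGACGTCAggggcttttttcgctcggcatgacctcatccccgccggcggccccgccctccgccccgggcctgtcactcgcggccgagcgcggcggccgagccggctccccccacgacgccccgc
The DUSP1 window held the cAMP response element, the E-box and the TATA box, the first with its first base at -125 and the last at -30 from the start. In the DUSP8 window the cAMP response element stood at both -118 and -74, and in the DUSP2 window an E-box stood at -113. Searched on both strands, the cAMP response element was in 1.85% of all 35116 windows of this length, the E-box in 7.26% and the TATA box in 11.5%. Its shorter core TGACG, which lies inside TGACGTCA, was in 24.6% of windows and, among members, in those of DUSP1, DUSP8 and DUSP10. No member window held the AP-1 site TGANTCA (7.71% of all windows), the ETS core CCGGAA (17.2%) or the longer ETS site CCGGAAGT that contains it (4.14%). The base composition also differed, as G and C made up 58.3% of the DUSP6 window and 75% of the DUSP2 window.

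Values are the authors' normalised reads, which are read counts divided by a size factor per library, and are given per library before each test. Changes were tested within a table with limma on log2(value + 1) for genes with a mean of at least 10, and called (two-sided) where the p adjusted by Benjamini-Hochberg over all genes tested was under 0.05. Log2 changes are given ± SE on that scale, which understates changes of low values. Depth, as recovered reads per library, was 9633599 to 14858024 for cultured cells, 8063754 to 25467614 for tumours of A375 and 26884205 to 42843612 for those of A375R. Of 7 melanocyte markers, 7 had a group mean of at least 10 in Colo800 and UACC62, 4 in untreated A375 culture, 3 in untreated A375 tumours and 3 in A375R tumours alone. MLANA, a melanocyte pigment protein, was near 0 in A375R tumours (1.71 normalised reads under vehicle alone), and SOX10, a melanocyte transcription factor, stood at 101 there. In H3122 under vehicle 7 of 9 lung markers had a mean of at least 10, among them NKX2-1 (3285) and EPCAM (6925), while SFTPC was at 0. Of the 7 melanocyte markers 2 did, and SOX10 was at 0.489.

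Across the 5 late comparisons in drug-sensitive cells, which share no libraries, DUSP4, DUSP5 and DUSP6 passed the test as lower in all 5, and DUSP2 in 4. DUSP7 was lower in 3 and DUSP1 lower in 3 and higher in 1. DUSP8, tested in 4, was higher in 3 and lower in 1. In UACC62 and A375 tumours, however, it passed the filter on low values only through the treated libraries, as did DUSP2 in Colo800 through vehicle, so these 3 calls could only be differences and are not read as support. DUSP16 was higher in 3. DUSP10 was lower in 2 and higher in 2, and DUSP14 lower in 1 and higher in 1. In these 5 comparisons 24% to 37.3% of all genes tested were lower and 22.1% to 36% higher. The small tallies are therefore not read as a result about the members. The resistant tumours showed 2 falls in A375R alone, against 0.487% of all genes tested, and none in mixed tumours, against 2.23%. The heat map of drug effects gives each log2 change.

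**Figure D1:**
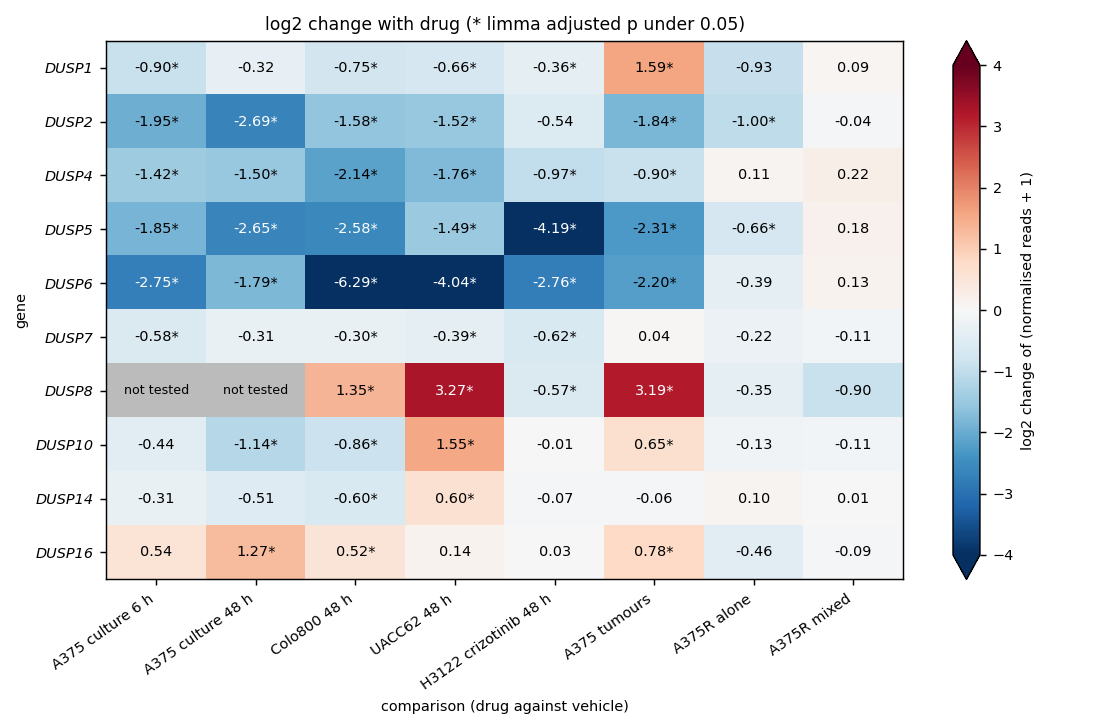
Log2 change of normalised reads + 1 with drug against vehicle for the 10 genes (rows) in 8 comparisons (columns), with an asterisk where limma gave an adjusted p under 0.05 and grey where a gene was not tested; colours saturate at 4. DUSP4, DUSP5 and DUSP6 are blue in all comparisons of A375, Colo800, UACC62 and H3122, DUSP8 is red in Colo800, UACC62 and A375 tumours, and the A375R columns are pale.

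The early response was read in A375 culture 6 h after vemurafenib. All 4 nuclear inducible members and both cytoplasmic ERK phosphatases fell, DUSP6 the most, to 14.6% of vehicle, and the 3 other tested members did not pass the test. Of the 9 members tested, 6 were lower, against 3.33% of all genes tested, and 0 were higher, against 1.07%. Their median log2 change was -0.90, beside -0.00011 for all genes tested.

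DUSP6 stood at 4061, 2089 and 2229 normalised reads in the vehicle libraries and at 275, 445 and 505 after 6 h. Every treated library lay far below every untreated one, and the change was -2.75 ± 0.27 (limma, adjusted p = 0.000273). DUSP6 overlaps the readthrough gene POC1B-DUSP6, and reads of the overlap cannot be told apart. DUSP7, its cytoplasmic relative, went from 664, 500.0 and 512 to 415, 339 and 361, a change of -0.58 ± 0.14 (limma, adjusted p = 0.0437). The DUSP7 groups did not overlap, but the call was lost when any of 5 libraries was left out, all but 6 h replicate 1, with adjusted p from 0.0683 to 0.181.

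Among the nuclear members, DUSP2 fell from 91.3, 70.5 and 120 (vehicle) to 18.7, 24.5 and 26.3, which is -1.95 ± 0.32 (limma, adjusted p = 0.00665). DUSP5 fell from 622, 550 and 838 to 109, 250 and 222, or -1.85 ± 0.34 (limma, adjusted p = 0.0111). DUSP4, at 5479, 5593 and 8023 in vehicle, was at 1552, 2516 and 3296 after 6 h, or -1.42 ± 0.29 (limma, adjusted p = 0.0198). Vehicle and treated libraries were apart for each of these genes, though for DUSP4 the limma call was lost without vehicle replicate 2 (adjusted p = 0.0624), vehicle replicate 3 (0.0754) or 6 h replicate 2 (0.0665). DUSP1, best known as an immediate early brake on p38 and JNK, fell less, from 186, 157 and 186 to 88.4, 98.8 and 93.6, or -0.90 ± 0.16 (limma, adjusted p = 0.00964).

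The stress-kinase members did not pass the test. DUSP16 read 187, 221 and 150 in vehicle and 333, 277 and 209 after 6 h, overlapping groups with a change of 0.54 ± 0.23 (limma, adjusted p = 0.240, but 0.0410 when replicate number, which pairs these libraries, was a block). DUSP10 had 570, 497 and 766 in vehicle and 257, 555 and 611 after 6 h, a change of -0.44 with a 95% interval from -1.14 to 0.26 (-0.05 without 6 h replicate 1, the library at 257). DUSP14 likewise overlapped, with a change of -0.31 (95% interval -0.87 to 0.26; 0.03 without 6 h replicate 1). DUSP8 had 1 to 9 reads per library in vehicle, 0 to 4 at 6 h and 2 to 19 at 48 h. It was not tested in A375 culture.

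At 48 h the calls against vehicle divided the members differently. Tested directly against 6 h, DUSP7 and DUSP10 did not pass (limma, adjusted p = 0.154 and 0.102). DUSP2, DUSP4, DUSP5 and DUSP6 were still lower than in vehicle, DUSP6 had risen again from 6 h, and DUSP1 and DUSP7 no longer passed the test against vehicle, while DUSP10 had fallen and DUSP16 had risen. Against vehicle 5 members were lower, against 25.6% of all genes tested, and 1 was higher, against 24.3%, so that single calls at 48 h are common among all genes. The 6 h and 48 h comparisons share the vehicle libraries.

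DUSP2 read 11.6, 20.7 and 9.94 normalised reads at 48 h, 15.0% of vehicle and a change of -2.69 ± 0.32 (limma, adjusted p = 7.87e-05). These are 9 to 20 reads per library, so the level is coarse. DUSP5 read 67.8, 138 and 121, 16.3% of vehicle and -2.65 ± 0.34 (limma, adjusted p = 0.000117). DUSP4 read 1518, 2623 and 2711, or -1.50 ± 0.29 against vehicle (limma, adjusted p = 0.0016), and -0.08 against 6 h (95% interval -0.73 to 0.56). DUSP6 read 707, 827 and 772, or 27.5% of vehicle. Its change was -1.79 ± 0.27 (limma, adjusted p = 0.000303).

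Between 6 h and 48 h 3 members were higher, against 19.6% of all genes tested, and 0 were lower, against 19.7%. DUSP6 rose by 0.95 ± 0.27 (limma, adjusted p = 0.016), and every 48 h library lay above every 6 h library. That limma call was lost without 6 h replicate 1 (adjusted p = 0.0520) or 48 h replicate 2 (0.0520). DUSP1, at 124, 148 and 152 after 48 h, rose by 0.59 ± 0.16 over 6 h (limma, adjusted p = 0.0144; 0.0530 without 48 h replicate 2 and 0.0603 without 48 h replicate 3). Against vehicle DUSP1 stood at 80.1% at 48 h, with a change of -0.32 (95% interval -0.67 to 0.03) and libraries that did not overlap. DUSP7 read 453, 446 and 439 at 48 h, 79.9% of vehicle, with a change of -0.31 and no overlap (limma, adjusted p = 0.0874).

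DUSP16, a phosphatase of JNK and p38, did not pass the test at 6 h and rose by 48 h. It reached 577, 404 and 374 at 48 h, 243% of vehicle, with a change of 1.27 ± 0.23 (limma, adjusted p = 0.000958), and was 0.72 ± 0.23 above 6 h (limma, adjusted p = 0.0261; 0.0563 without 6 h replicate 2, 0.0950 without 6 h replicate 3 and 0.0947 without 48 h replicate 1). DUSP10, which acts on the same kinases, moved down to 200, 302 and 333, or 45.6% of vehicle and -1.14 ± 0.32 (limma, adjusted p = 0.0119). DUSP14 read 764, 832 and 829.3, or 69.6% of vehicle, below every vehicle library but without passing the test (limma, adjusted p = 0.124). Against 6 h, DUSP2 changed by -0.73 (95% interval -1.44 to -0.02), DUSP7 by 0.27 (-0.04 to 0.58) and DUSP14 by -0.20 (-0.77 to 0.37), none past the threshold. DUSP5 (-0.80, limma, adjusted p = 0.0858) and DUSP10 (-0.70, limma, adjusted p = 0.102) did not pass it either, and their groups overlapped. In a fit blocked on replicate number, DUSP5 and DUSP10 were also lower at 48 h than at 6 h (limma, adjusted p = 0.0117 and 0.0119), which makes 5 calls in place of 3. Leaving out 6 h replicate 1, where DUSP4, DUSP5, DUSP6, DUSP10 and DUSP14 were lowest of the 6 h libraries, also gave 5, but not the same 5. DUSP6 was lost (limma, adjusted p = 0.0520), and DUSP5 (0.0121), DUSP10 (0.00618) and DUSP14 (0.0340) were gained as lower.

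**Figure D2:**
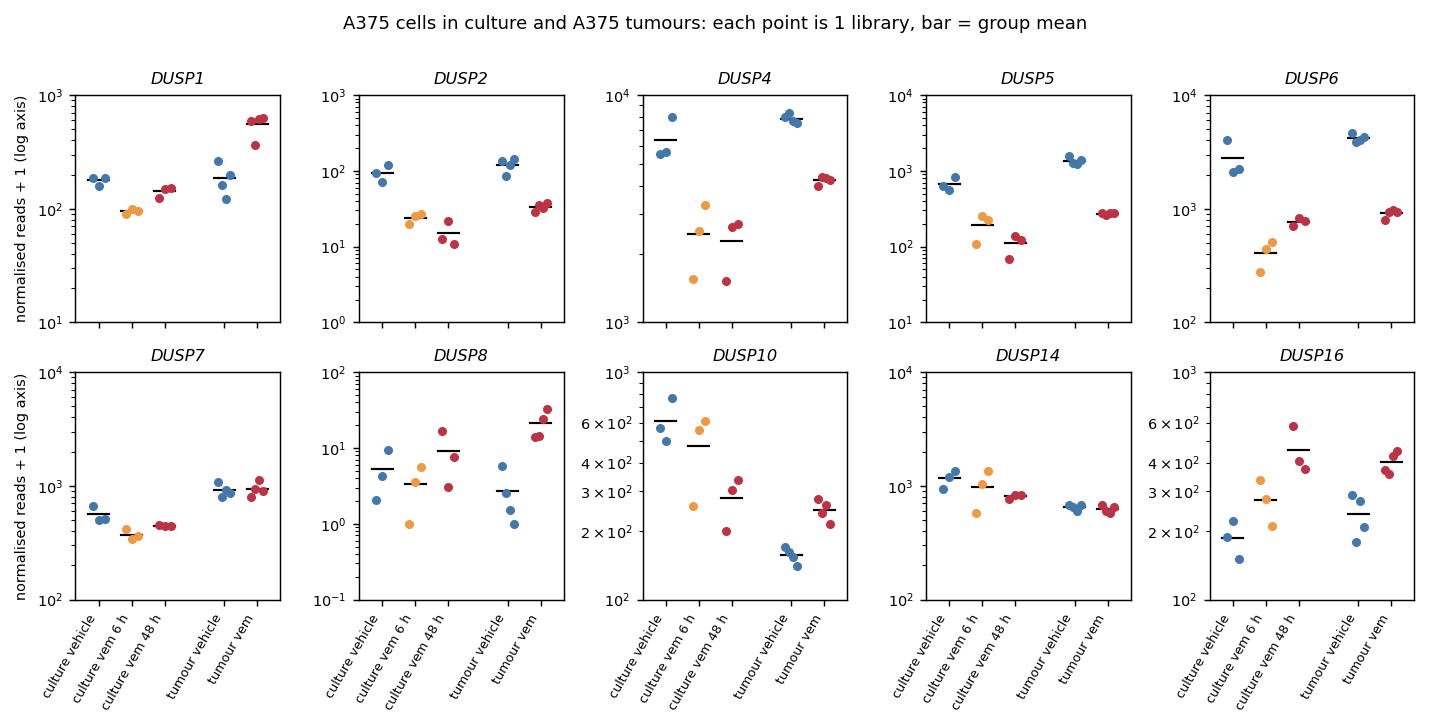
Normalised reads + 1 on a log axis for each of the 10 genes in A375 cells in culture (vehicle, vemurafenib 6 h and 48 h) and in A375 tumours (vehicle, vemurafenib), with a point for each library and a bar at the group mean; culture and tumour tables were normalised separately. DUSP6 falls to 275 to 505 at 6 h and lies at 707 to 827 at 48 h, and DUSP1 is lower at 6 h in culture and higher in treated tumours.

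In Colo800 after 48 h of vemurafenib each member passed the test, DUSP2 after passing the filter only through its vehicle libraries. DUSP6 dropped to 1.25% of vehicle, and DUSP5, DUSP4 and DUSP2 to between 16.5% and 30.9%, while DUSP8 and DUSP16 rose. That made 8 members lower, DUSP2 among them, against 37.3% of all genes tested, and 2 higher, against 36%. Calls were that frequent among all genes, so the sizes below describe the members better than the count.

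DUSP6 went from 2750 and 3099 normalised reads to 38.5 and 34.5 in Colo800, a change of -6.29 ± 0.09 (limma, adjusted p = 4.48e-20). DUSP4 read 15990 and 15785 in vehicle and 3664 and 3554 with drug, or -2.14 ± 0.04. DUSP5 read 416 and 438 in vehicle and 74.9 and 66.1 with drug, or -2.58 ± 0.11. DUSP2 was low, at 24.1 and 33.5 against 10.1 and 7.67, with a change of -1.58 ± 0.33. DUSP1 fell to 59.3% and DUSP7 to 80.9% of vehicle, neither with overlap and DUSP7 without a call in DESeq2 (adjusted p = 0.0568).

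DUSP8 rose in Colo800 from 53.3 and 58.9 to 155 and 134, or 1.35 ± 0.16 (limma, adjusted p = 3.42e-07). DUSP16 rose from 332 and 308 to 501 and 419, or 0.52 ± 0.09. DUSP10 fell from 1158 and 1224 to 646 and 665, or -0.86 ± 0.05, and DUSP14 fell to 66.1% of vehicle. The groups of each of these genes were apart. DUSP8 overlaps LOC124902608, listed as protein coding, and the antisense gene KRTAP5-AS1, and it has pseudogene copies. No source says that strand was used in counting, so the values of DUSP8 are uncertain in every table. DUSP5 also has pseudogenes by name, DUSP5P1 and DUSP5P2, and how reads shared with them were counted is not given.

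In UACC62 DUSP1, DUSP2, DUSP4, DUSP5, DUSP6 and DUSP7 passed the test as lower, while DUSP10 and DUSP14 rose. Of the 10 members, 6 were lower, against 29.6% of all genes tested, and 3 were higher, against 26.9%. The third of these was DUSP8, which passed the filter only through its treated libraries. DUSP16 was the member not called.

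DUSP6 went from 2389 and 2382 to 137 and 152 in UACC62, 6.05% of vehicle and -4.04 ± 0.11 (limma, adjusted p = 5.36e-08). DUSP4 went from 9933 and 9925 to 2686 and 3207, or -1.76 ± 0.10. DUSP2 went from 85.9 and 91.8 to 35.2 and 26.0, or -1.52 ± 0.22, and DUSP5 from 96.1 and 115 to 34.2 and 40.0, or -1.49 ± 0.20. Each of these genes lay at 6.05% to 35.03% of vehicle with libraries well apart. DUSP1 fell to 62.1% of vehicle (limma, adjusted p = 0.0265; 0.316 without vehicle replicate 2) and DUSP7 to 76.1% (limma, adjusted p = 0.0273; 0.213 without vehicle replicate 1 and 0.204 without vehicle replicate 2), without overlap. Both calls were lost in DESeq2 (adjusted p = 0.0716 and 0.104) and with quantile normalisation, and that of DUSP1 without a filter.

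DUSP10 rose in UACC62 from 127 and 155 to 439 and 386, or 1.55 ± 0.15 (limma, adjusted p = 3.54e-05), opposite to its fall in Colo800 and in A375 culture, again without a test between tables. DUSP14 rose as well, from 852 and 797 to 1294 and 1211, or 0.60 ± 0.10 (limma, adjusted p = 0.000984). DUSP8 went from 5.54 and 3.09, which are 6 and 3 reads, to 48.7 and 49.0, and passed the filter through its treated libraries. The log2 change of 3.27 ± 0.36 therefore depends on the pseudocount. DUSP16 read 379 and 356 in vehicle and 363 and 450 with drug, a change of 0.14 (95% interval -0.17 to 0.44), though it passed without treated replicate 1 (limma, 0.29, adjusted p = 0.00315).

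In H3122 cells, driven by ALK in place of BRAF, DUSP4, DUSP5, DUSP6, DUSP7 and DUSP8 were lower with crizotinib, as was DUSP1, whose call was lost in several settings. DUSP5 fell to 5.37% and DUSP6 to 14.8% of vehicle, and DUSP2, DUSP10, DUSP14 and DUSP16 did not pass the test. Of the 10 members, 6 were lower, against 24% of all genes tested, and 0 were higher, against 22.1%.

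DUSP5, a nuclear phosphatase of ERK, went from 834 and 867 to 49.3 and 42.1 in H3122, or -4.19 ± 0.13 (limma, adjusted p = 1.3e-09). DUSP6 went from 14461 and 14040 to 1996 and 2228, or -2.76 ± 0.09 (limma, adjusted p = 1.3e-09). DUSP4 went from 2751 and 2633 to 1363 and 1384, or -0.97 ± 0.08, and DUSP7 from 246 and 254 to 160 and 165, or -0.62 ± 0.12. In each case both treated libraries were below both vehicle libraries. DUSP8, which rose in Colo800, fell here from 277 and 298 to 185 and 203, or -0.57 ± 0.12 (limma, adjusted p = 0.00246). Its higher values in UACC62 passed the filter only through treated libraries and are not set against this fall.

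DUSP1 stood at 77.7% of vehicle in H3122 (limma, -0.36 ± 0.13, adjusted p = 0.0423). The limma call was lost without vehicle replicate 2 (adjusted p = 0.175), crizotinib replicate 1 (0.0797) or crizotinib replicate 2 (0.255), and also in DESeq2 (0.189) and without a filter (0.0893). DUSP2 read 40.3 and 31.3 in vehicle and 20.1 and 28.7 with crizotinib, 68.2% of vehicle, with a change of -0.54 (95% interval -1.15 to 0.06). DUSP10 was at 100.4%, DUSP14 at 94.6% and DUSP16 at 102% of vehicle, and their 95% intervals were -0.43 to 0.40, -0.38 to 0.25 and -0.18 to 0.23.

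**Figure D3:**
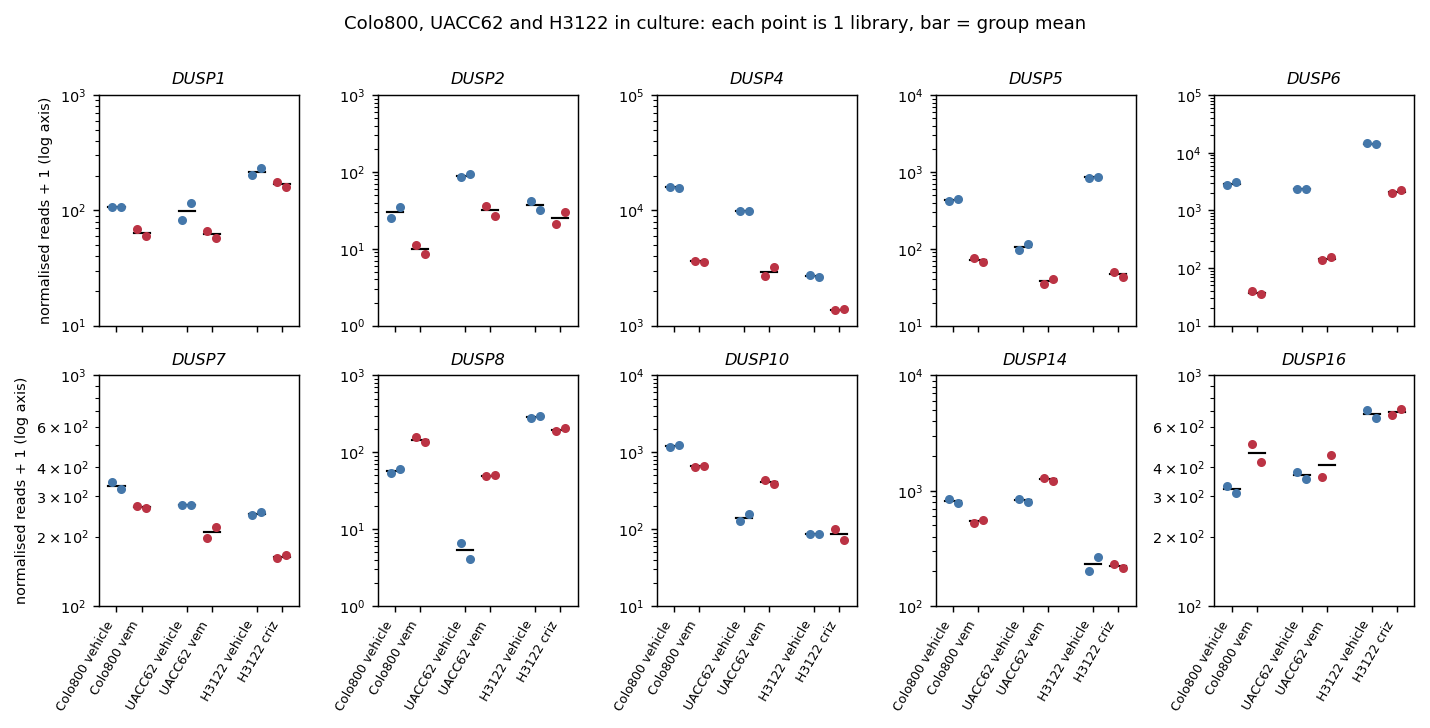
Normalised reads + 1 on a log axis for each of the 10 genes in Colo800 and UACC62 (vehicle, vemurafenib 48 h, written vem) and in H3122 (vehicle, crizotinib 48 h, written criz), with a point for each library and a bar at the group mean. DUSP6 is lower in every treated pair, at 34.5 and 38.5 in Colo800, and DUSP10 is lower in treated Colo800, higher in treated UACC62 and level in H3122.

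In A375 tumours DUSP2, DUSP4, DUSP5 and DUSP6 fell with vemurafenib, and DUSP1, DUSP10 and DUSP16 rose. The rise of DUSP1, to 297% of vehicle, goes against its fall in all 4 cultured lines (in A375 at 6 h), a difference between tables that was not tested. Of the 10 members, 4 were lower, against 34% of all genes tested, and 4 were higher, against 34.2%, the last being DUSP8, which passed the filter only through treated libraries. Their median log2 change was -0.01, beside 0.0026 for all genes tested.

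DUSP6 read 4640, 3836, 4052 and 4310 in vehicle tumours and 801, 938, 976 and 941 in treated tumours, or -2.20 ± 0.08 (limma, adjusted p = 7.8e-13). DUSP5 read 1565, 1251, 1230 and 1384 against 279, 259, 276 and 274, or -2.31 ± 0.09 (limma, adjusted p = 9.48e-13). DUSP2 read 133, 84.6, 120 and 143 against 27.3, 34.5, 31.4 and 36.7, or -1.84 ± 0.18. All treated libraries were below all vehicle libraries for these genes, and the treated libraries were close to each other. DUSP4 fell to 53.4% of vehicle, from 8027, 8329, 7653 and 7524 to 3969, 4357, 4300 and 4215, or -0.90 ± 0.07. In ribosome-bound RNA from tumours, fewer cells of a type and less RNA per cell cannot be told apart.

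DUSP1 read 265, 160, 121 and 198 in vehicle tumours and 594, 361, 619 and 630 in treated tumours. The groups did not overlap and the change was 1.59 ± 0.20 (limma, adjusted p = 2.68e-06), or 1.78 without the treated library at 361. FOS, which like DUSP1 is an immediate early gene, was the 1 member of the ERK output list that rose in these tumours (limma, 2.39 ± 0.44, adjusted p = 0.000124). FOS also rose in UACC62 (limma, 1.10 ± 0.12, adjusted p = 9.26e-05). There DUSP1 was lower, a call lost in DESeq2, with quantile normalisation and without a filter. A link between the 2 genes was not tested. DUSP10 rose from 170, 161, 153 and 140 to 275, 240, 258 and 213, or 0.65 ± 0.11, and DUSP16 from 289, 179, 271 and 207 to 371, 356, 429 and 449, or 0.78 ± 0.14, both without overlap.

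DUSP8 had 3, 1, 1 and 0 reads in vehicle tumours and 13, 13, 29 and 49 in treated ones. Since the treated libraries alone carried it past the filter, its p is not given as support. Its log2 change of 3.19 ± 0.53 ranged from 1.89 with a pseudocount of 5 to 3.90 in DESeq2, so the size depends on the setting. DUSP7 read 791 to 1087 in vehicle and 803 to 1119 with drug, 103% of vehicle (95% interval of the log2 change -0.19 to 0.26). DUSP14 was at 96.0% of vehicle (-0.23 to 0.11).

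Sums of cell type markers were read in the same tumours. A375 is itself a melanoma line, so melanocyte genes need not mark another cell type there. In vehicle A375 culture the melanocyte sum was 9464 to 11900 and the red cell, skin and muscle sum 73.8 to 219. Such sums therefore do not show other cells by themselves. The summed level of 6 red cell, skin and muscle genes was 34.6 to 49.7 in vehicle and 126 to 241 in treated tumours, with HBA1 and HBB at 0 in vehicle and HBA1 at 0 with drug. That of 7 melanocyte genes was 1196 to 1775 and 9258 to 10655, with TYR and DCT at 0 in vehicle, and that of 6 leukocyte genes was 501 to 693 and 649 to 1028, with PTPRC at 0.528 and 0.828. That of 6 fibroblast genes was 1095 to 1456 and 538 to 677, and that of 5 endothelial genes 16.3 to 28.9 and 16.5 to 39.4. Their part in the higher values of DUSP1, DUSP8, DUSP10 and DUSP16 was not tested.

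Resistant A375R tumours had few changes under vemurafenib. In tumours of A375R alone DUSP2 and DUSP5 passed the test as lower, at 48.9% and 63.4% of vehicle, and DUSP4 and DUSP6, which fell in every sensitive setting, did not. Of the 10 members, 2 were lower, against 0.487% of all genes tested, and 0 were higher, against 0.305%. Tumours of A375R and A375 come from separate tables, and the difference between them was not tested.

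DUSP2 read 508, 475 and 315 in vehicle tumours of A375R alone and 185, 220 and 230 with vemurafenib, or -1.003 ± 0.20 (limma, adjusted p = 0.0365). DUSP5 read 6979, 7638 and 7703 against 5075, 4908 and 4168, or -0.66 ± 0.15 (limma, adjusted p = 0.0495). Neither gene's groups overlapped. Both calls are fragile: that of DUSP5 was lost when any of the 6 libraries was left out (adjusted p from 0.0700 to 0.243), and that of DUSP2 when any but treated replicate 3 was (0.0763 to 0.148).

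DUSP1 read 1451, 1016 and 1028 against 456, 822 and 588 in A375R alone, also without overlap, and was just short of the threshold, with -0.93 ± 0.22 (limma, adjusted p = 0.0526). It passed with a filter at 50 (0.0477), in a limma fit of the 2 groups alone (0.0245) and in DESeq2 (adjusted p = 0.00304), whereas DUSP5 was lost in edgeR (0.0535). DUSP16 was at 72.4% of vehicle without overlap (limma, adjusted p = 0.118). DUSP6 read 5096, 4080 and 4287 against 2857, 4104 and 3352, overlapping by 1 treated library, with a change of -0.39 (95% interval -0.69 to -0.10; limma, adjusted p = 0.149). DUSP4 read 8484, 8238 and 8754 against 8617, 9777 and 9070, a change of 0.11 (95% interval -0.10 to 0.32). DUSP7 (85.3% of vehicle), DUSP8 (80.1%), DUSP10 (92.1%) and DUSP14 (107%) overlapped as well.

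Summed leukocyte markers, mostly CD68, also fell in these tumours, from 7531 to 9707 in vehicle to 3788 to 5938 with drug, while PTPRC, the pan-leukocyte gene, stood at 1.07 and 1.19. Summed fibroblast markers rose from 1256 to 1518 to 2482 to 3319, with none of the 6 at 0. DUSP2 is known best from leukocytes. The part of these markers in the change of DUSP2 was not tested.

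In mixed tumours no member passed the test with vemurafenib. The lower count of 0 stands against 2.23% of all genes tested and the higher count of 0 against 1.24%. At an unadjusted p under 0.05 limma had 1 member, DUSP4, and edgeR and DESeq2 had 0 and 1, with 0 adjusted calls in both. DUSP1 read 1075, 1808 and 1870 in vehicle and 1650, 1452 and 1817 with drug, DUSP2 302, 314 and 359 against 250, 446 and 279, and DUSP5 4976, 7412 and 7962 against 7041, 8773 and 6977. These groups overlapped, and the changes were 0.09, -0.04 and 0.18, with 95% intervals from -0.37 to 0.54, -0.47 to 0.39 and -0.13 to 0.50. DUSP6 read 4047, 4741 and 4195 against 4344, 4206 and 5717, a change of 0.13 (95% interval -0.17 to 0.42). For DUSP4 the change was 0.22 (0.01 to 0.43; limma, adjusted p = 0.220). DUSP7 (92.6% of vehicle), DUSP8 (67.0%), DUSP10 (92.6%), DUSP14 (102%) and DUSP16 (93.8%) overlapped too, with the widest 95% interval, -2.10 to 0.31, for DUSP8 at 2 to 28 reads per library.

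**Figure D4:**
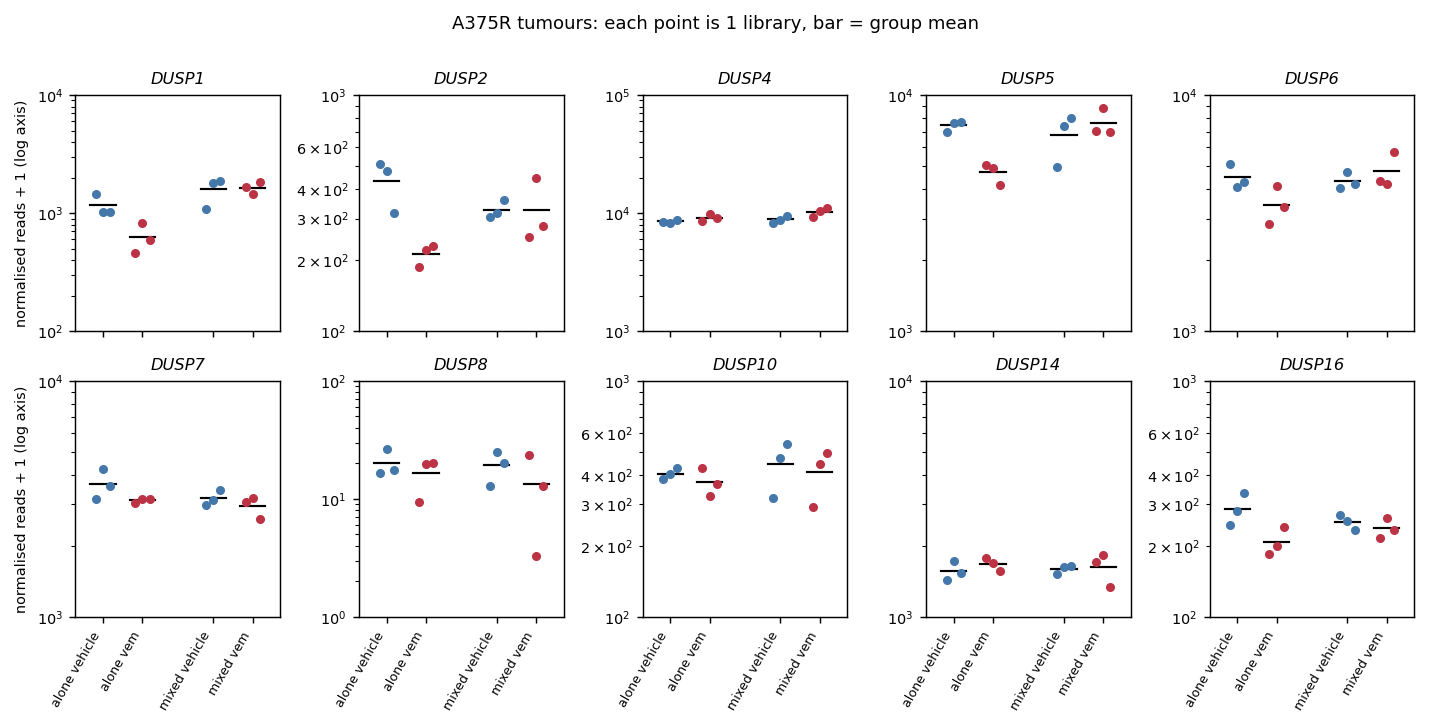
Normalised reads + 1 on a log axis for each of the 10 genes in A375R tumours, alone or mixed with A375, under vehicle or vemurafenib (vem), with a point for each of 3 libraries per group and a bar at the group mean. DUSP1, DUSP2 and DUSP5 are lower with drug in tumours of A375R alone, where the libraries do not overlap, and overlap in mixed tumours.

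Mixed and alone tumours were next compared at the same treatment. Under vehicle no member differed past the threshold, and under vemurafenib DUSP1 was higher in mixed tumours, at 264% of the level in tumours of A375R alone. Under vehicle the counts of 0 lower and 0 higher stand against 1.37% and 1.93% of all genes tested; limma and edgeR had 0 members and DESeq2 1 at an unadjusted p under 0.05, and edgeR and DESeq2 had 0 adjusted calls. Under vemurafenib 1 member was higher, against 0.211% of all genes tested, and 0 were lower, against 0.0291%. These 4 comparisons of A375R share libraries.

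DUSP1 under vemurafenib read 456, 822 and 588 in A375R alone and 1650, 1452 and 1817 in mixed tumours, clear of each other, with a change of 1.43 ± 0.22 (limma, adjusted p = 0.0107; 0.0759 without alone replicate 1 and 0.0616 without mixed replicate 3). FOS was the gene of the ERK output list that was higher there (limma, 2.01 ± 0.40, adjusted p = 0.0498), a call that edgeR did not make (0 of 19). DUSP5 was 161%, DUSP2 154% and DUSP6 138% of the level in A375R alone, also without overlap, but did not pass the threshold (limma, adjusted p = 0.0678, 0.279 and 0.221). DUSP5 passed it in DESeq2 (adjusted p = 0.0024). Under vehicle DUSP1 was at 136% with overlapping libraries (log2 change 0.42, 95% interval -0.04 to 0.88). All other members overlapped under vehicle as well: DUSP2 was at 75.1%, DUSP4 at 104%, DUSP5 at 91.2%, DUSP6 at 96.4%, DUSP7 at 87.0%, DUSP8 at 95.3%, DUSP10 at 109%, DUSP14 at 102% and DUSP16 at 88.1% of the level in A375R alone. Under vemurafenib DUSP4 (113%), DUSP7 (94.5%), DUSP8 (79.7%), DUSP10 (109.9%), DUSP14 (96.9%) and DUSP16 (114%) overlapped. Of the marker lists, that of lung epithelium, which in these tumours is mostly KRT18, was 22629 to 26945 in treated tumours of A375R alone and 30347 to 47135 in treated mixed ones. Summed leukocyte markers, mostly CD68 in A375R alone, were 3788 to 5938 and 5081 to 8252. The part of either list in the difference of DUSP1 was not tested.

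Whether the drug effect itself differed between mixed and alone tumours was tested as an interaction. It was positive and past the threshold for DUSP5, whose response was higher in mixed tumours by 0.85 ± 0.21 (limma, adjusted p = 0.0442). Of the 10 members, 1 was higher, against 1.91% of all genes tested, and 0 were lower, against 0.974%. DUSP1 (1.01 ± 0.31, adjusted p = 0.0786), DUSP2 (0.96 ± 0.29, adjusted p = 0.0777) and DUSP6 (0.52 ± 0.20, adjusted p = 0.169) had limma intervals above 0 and did not pass after adjustment. The DUSP5 call was lost when any of 9 of the 12 libraries was left out, that is each of the 6 of A375R alone (adjusted p 0.0598 to 0.120), mixed vehicle replicate 1 (0.0737) and mixed treated replicates 2 and 3 (0.0910 and 0.0721). For DUSP4 (0.11, 95% interval -0.18 to 0.41), DUSP7 (0.11, -0.23 to 0.45), DUSP8 (-0.55, -2.24 to 1.15), DUSP10 (0.01, -0.57 to 0.60), DUSP14 (-0.09, -0.43 to 0.26) and DUSP16 (0.37, -0.08 to 0.81) the interval spans 0. DESeq2 also called DUSP1 (adjusted p = 0.0325) and DUSP2 (0.0176). Marker lists moved with this contrast. The melanocyte sum under vehicle was 427 to 769 in tumours of A375R alone and 1021 to 1492 in mixed ones, and with drug 403 to 740 and 600.2 to 755, with TYR at 0 in all 4 groups and DCT at 0 in all but treated mixed tumours. SOX10 stood at 101 alone and 789 mixed under vehicle, and at 181 and 135 with drug. Summed leukocyte markers went from 7531 to 9707 down to 3788 to 5938 with drug in A375R alone, and in mixed tumours from 3330 to 5001 up to 5081 to 8252. PTPRC was at 0 in mixed vehicle tumours. In cultured UACC62 this sum was 593 to 595 in vehicle and 1531 to 1712 with drug, so it does not stand for leukocytes alone. Their part in the interaction was not tested.

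**Figure D5:**
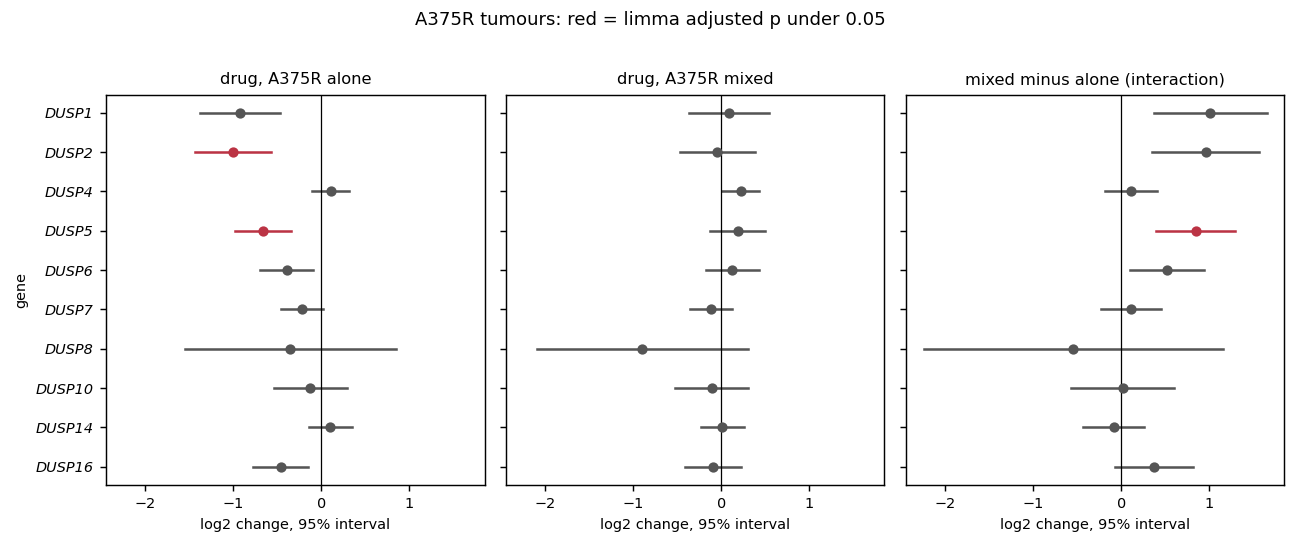
Log2 change (point) and limma 95% interval (line) of the 10 genes in A375R tumours for vemurafenib against vehicle alone (left), mixed (middle) and for the difference of the 2 drug effects (right), with red where the adjusted p is under 0.05. DUSP1, DUSP2, DUSP5 and DUSP6 lie left of 0 in tumours of A375R alone and right of 0 in the difference.

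Other genes of the pathway set the members in context. Of 19 ERK output genes other than phosphatases, such as the feedback inhibitor SPRY4 and the ETS factor ETV5, 17 fell at 6 h and 18 of 19 at 48 h in A375 culture. In Colo800 17 of 17 fell, in UACC62 16 of 18 (1 higher), in H3122 17 of 18 (1 higher) and in A375 tumours 16 of 19 (1 higher). Of all genes tested, 3.33% were lower in A375 culture at 6 h and 25.6% at 48 h. The share lower was 37.3% in Colo800, 29.6% in UACC62, 24% in H3122 and 34% in A375 tumours. The share higher was 26.9% in UACC62, 22.1% in H3122 and 34.2% in A375 tumours. In A375R 2 of 19 fell alone, IER3 (limma, -0.54 ± 0.12, adjusted p = 0.0471) and SPRY1 (-0.77 ± 0.17, adjusted p = 0.0483), and 4 of 19 in mixed tumours, led by SPRY4 (-0.81 ± 0.13, adjusted p = 0.00286). Of all genes tested, 0.487% were lower in A375R alone and 2.23% in mixed tumours. The calls in A375R alone were lost in edgeR (0 of 19), while DESeq2 made 4. The median of this list was -1.72 at 6 h and -0.14 in A375R alone.

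Of 15 other dual-specificity phosphatases, 11 were tested in each table. At 6 h 1 rose, DUSP19 (limma, 1.07 ± 0.22, adjusted p = 0.0189). DUSP22 rose at 48 h in A375 culture (limma, 1.84 ± 0.17, adjusted p = 1.86e-05), in Colo800 (1.72 ± 0.07, adjusted p = 5.74e-14), in UACC62 (1.67 ± 0.12, adjusted p = 8.49e-06) and, less, in H3122 (0.36 ± 0.14, adjusted p = 0.0462). At 48 h 5 rose and 1 fell in A375 culture, 4 and 1 in Colo800, 5 and 1 in UACC62 and 2 and 2 in H3122, where DESeq2 made 1 call in place of 4. Of all genes tested, 24.3% were higher and 25.6% lower in A375 culture at 48 h, 36% and 37.3% in Colo800, 26.9% and 29.6% in UACC62, 22.1% and 24% in H3122 and 34.2% and 34% in A375 tumours, shares against which this and the next 2 lists are to be read. In A375 tumours 2 fell, DUSP9, a cytoplasmic ERK phosphatase (limma, -3.39 ± 0.18, adjusted p = 7.25e-11), and DUSP23 (-1.66 ± 0.09), and 4 rose. In A375R limma called 0 of 11 in each of the 4 comparisons and in the interaction, with 0 to 2 at an unadjusted p under 0.05, 0 by edgeR and at most 2 by DESeq2.

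The kinases these phosphatases act on were read from the same tables. Of 10 MAP kinases, 8 were tested in A375 culture, where 0 passed at 6 h (limma; 0 at an unadjusted p under 0.05, 0 by edgeR and 0 by DESeq2) and 1, MAPK8, which encodes JNK1, fell at 48 h (limma, -0.72 ± 0.22, adjusted p = 0.0186). MAPK8 also fell in Colo800 (-0.59 ± 0.10) and A375 tumours (-0.54 ± 0.12). Counts of this list were 3 higher and 2 lower in Colo800, 3 and 1 in UACC62, 0 and 1 in H3122 and 1 and 4 in A375 tumours, of 8 or 9 tested. Among the RAF and MAP2K kinases, 10 of 10 tested, MAP2K3, which activates p38, fell at 48 h in A375 culture (limma, -1.17 ± 0.25, adjusted p = 0.00264), Colo800 (-1.99 ± 0.05), UACC62 (-1.09 ± 0.10) and H3122 (-0.70 ± 0.10). This list had 1 higher and 3 lower members in A375 culture at 48 h, 4 and 2 in Colo800, 4 and 1 in UACC62, 1 and 3 in H3122 and 2 and 4 in A375 tumours, of 10 tested, and neither kinase list is read as a result beside the shares of all genes given above. PTPRR, a tyrosine phosphatase of ERK, was the tested member of a list of 3 in A375 culture, where it was lower at 48 h than in vehicle (limma, adjusted p = 0.00681) and than at 6 h (-3.21 ± 0.50, adjusted p = 0.00064). The list also had 1 fall in A375R alone (PTPRR, limma, -0.90 ± 0.19, adjusted p = 0.0384), and PTPRR was lower in mixed than in alone tumours under vehicle (-0.78 ± 0.19, adjusted p = 0.0330). For the MAP kinases limma called 0 of 10 in each comparison of A375R and in the interaction, with 0 or 1 at an unadjusted p under 0.05 and 0 by edgeR and by DESeq2. Of the RAF and MAP2K kinases 1, BRAF, was lower in mixed tumours under vehicle (limma, -0.44) and 0 were called in the other comparisons of A375R, with 0 to 3 at an unadjusted p under 0.05, 0 by edgeR and at most 1 by DESeq2.

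Across all 41 libraries, on log2(value + 1) minus the vehicle mean of the table, the genes most like DUSP6 among 11230 were LIF (Pearson r = 0.982), PLEKHN1 (0.927), PFKFB4 (0.921), IL8 (0.920, the files' symbol for CXCL8) and MAFF (0.920). Spearman's rho was 0.845 for LIF and 0.727 to 0.824 for the other 4. Of the members, DUSP4 came next by Pearson r, at rank 6 (r = 0.914), DUSP5 at rank 385 (0.763) and DUSP2 at rank 1299 (0.653). DUSP16 was at rank 9271 (-0.50). By Spearman's rho the order of the first members changed, with DUSP5 at 0.779, DUSP2 at 0.732 and DUSP4 at 0.707. These are descriptions with no test, since libraries cluster by drug and table and share vehicle means.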

How the data were processed

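RNA sequencing libraries were grouped by sample titles and characteristics. Per the labels, libraries were made with a TruSeq RNA kit, version 2. The signal deposited by the authors is, judged from the values, normalised reads per gene symbol, which are whole reads scaled by 1 factor in each library. Of tools, HTSeq 0.5.4, STAR 2.3.0e and DESeq 1.18.0 appear in the submitters' processing notes, as do mm9 and hg19, with no role given. The sources used here do not say how mouse reads were treated. Dividing by the value of 1 read, fitted from the low values of each library, gave whole reads for 100% of values within a tolerance of 0.1.

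The 6 tables were normalised separately, and each was fitted alone with limma 3.58.1 (R 4.3.3, mean-variance trend) on log2(value + 1), all groups of a table together, for genes with a mean of at least 10. The script was tested on simulated data. Members and gene lists were chosen with earlier results of these data known. All 10 members are named in every comparison, and of the other lists up to 2 genes per direction with the smallest adjusted p, plus the 5 genes most like DUSP6. Replicate numbers paired A375 culture libraries, where deviations from group means correlated by 0.567, 0.310 and 0.566 for vehicle with 6 h and by 0.436, 0.197 and 0.410 for 6 h with 48 h. For vehicle with 48 h they were 0.402, 0.0280 and 0.320, which falls short of 0.1 in 1 pair, and in no other table did every pair reach it. Alternatives were pseudocounts of 0.5 and 5, no filter, a filter at 50, quantile normalisation, a replicate block, fits of 2 groups alone, edgeR 4.0.16 and DESeq2 1.42.0 on the recovered reads, and leaving out each library. Promoter windows are from RefSeq. DUSP4 and DUSP5 had no window in the table used, and protein sequences were not used here.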

Additional observations from a re-analysis of the deposited data

Results flagged for a closer look

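DUSP1 in A375 tumours under vemurafenib had 1 library, replicate 2, at 361.43 normalised reads, far below the other 3 at 594 to 630 for a group of 4. It still lay above every vehicle tumour, the highest of which was at 265. Of 20 groups of values tested for such a gap, 1 was set apart, and chance sets apart about 1 in 20. No cause was tested.

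The response of DUSP5 to vemurafenib in A375R differed between mixed tumours and tumours of A375R alone by 0.845665 on the log2 scale (limma interaction, adjusted p = 0.0442). With drug DUSP5 went from a mean of 7440 to 4717 normalised reads in A375R alone and from 6783 to 7597 in mixed tumours. The mixed vehicle libraries were spread from 4976 to 7962. The limma call was lost when any of 9 of the 12 libraries was left out (adjusted p 0.0598 to 0.120), and the value was lowest without mixed vehicle replicate 1 (0.64, adjusted p = 0.0737).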

How the results depend on the processing

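Of the 52 member changes called in the 12 comparisons, 39 passed the threshold under every alternative in which the gene was tested. The other 13 were lost under at least 1. Members at low values were not tested in some alternatives. DUSP8 had 13 in A375 tumours, where DUSP6 had 16, and 11 in UACC62, where DUSP6 had 12. DUSP2 had 14 at 48 h in A375 culture, where DUSP6 had 15, and 11 in Colo800, where DUSP6 had 12. No called change took the other sign. All calls at 48 h against vehicle in A375 culture (6) and in A375 tumours (8) were kept wherever the gene was tested. In the same sense 9 of 10 were kept in Colo800, 7 of 9 in UACC62, 5 of 6 in H3122 and 4 of 6 at 6 h. The count of members at 48 h against 6 h, 3, was 5 with the replicate block and 5 with DESeq2, and 2 to 5 in leave-one-out fits. In A375R alone the count of 2 was 1 with a pseudocount of 5, 0 without a filter, 1 with edgeR and 0 to 1 in leave-one-out fits, and 3 with a filter at 50, the replicate block, DESeq2 and the 2 groups alone, each of which added DUSP1. For mixed against alone under vemurafenib, 1 became 2 with the replicate block, 2 with DESeq2 and 0 to 1 in leave-one-out fits. The interaction count of 1 was 0 without a filter, 3 with DESeq2 and 0 to 2 in leave-one-out fits. In these 4 comparisons the cause was not tested. DUSP7 at 6 h was also lost without a filter (adjusted p = 0.0509), with quantile normalisation (0.0580) and in a limma fit of the 2 groups alone (0.104). With 2 libraries per group, leaving out 1 assumes that the lone library varies like the other groups. In H3122 same-numbered libraries correlated at -0.209, so the crossed pairing was added after seeing the data and gave 6 calls. With the replicate block in limma DUSP16 was gained at 6 h (adjusted p = 0.0410), DUSP7 (0.0329) and DUSP14 (0.0213) at 48 h against vehicle, DUSP5 and DUSP10 at 48 h against 6 h, DUSP1 in A375R alone (0.0415) and DUSP5 in mixed against alone under vemurafenib (0.0487), and DUSP1 was lost in H3122 (0.0762). It changed no other member call. Other gains were DUSP2 with quantile normalisation at 48 h against 6 h (0.0398) and in H3122 (0.0463), and DUSP14 at 48 h in the 2 groups alone (0.0193). Numbers pair libraries only in A375 culture, for 6 h with vehicle and with 48 h. Over all genes, 608 calls at 6 h became 1462 with the block, 1045 with DESeq2 and 309 to 641 in leave-one-out fits. In A375R alone 109 became 14 without a filter, 298 with the block, 748 with DESeq2, 533 in the 2 groups alone and 1 to 326 in leave-one-out fits. With drug in mixed tumours 478 became 958 with DESeq2, 248 in the 2 groups alone and 96 to 563 in leave-one-out fits. For mixed against alone under vehicle 454 became 297 with a filter at 50, 870 with DESeq2 and 109 to 660 in leave-one-out fits. Under vemurafenib 33 became 8 to 152 over the other settings and 1 to 38 in leave-one-out fits. For the interaction 397 became 185 without a filter, 887 with DESeq2 and as few as 10 in leave-one-out fits. The planned count of members with no overlap is not reported. Depth limits DUSP8 and DUSP2, with 0 to 49 reads per library in A375 tumours for DUSP8.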
